A study of Mus musculus with 18 samples.

Results

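Genes of bone morphogenetic protein (BMP) signalling and the Id genes that answer to it were followed in fetal mouse lung. The members were taken by gene symbol: the ligand genes Bmp2, Bmp4, Bmp5 and Gdf10, the receptor genes Bmpr1a and Bmpr2, the inhibitor gene Smad6 and the target genes Id1, Id2 and Id3. On the MOE430 2.0 array these 10 genes, of 18193 with a symbol, were read by 21 of the 45037 probe sets tested. Bmpr1a had 6 probe sets, Bmp5, Bmpr2 and Id2 had 3 each, and the other 6 genes had 1 each. A gene with several probe sets is described by the probe set of highest mean signal, and the others are given where their result differed.

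BMPs are secreted ligands of the TGF-beta superfamily that bring type I and type II receptor kinases together. The activated type I receptor phosphorylates SMAD1 and SMAD5, which join SMAD4, enter the nucleus and switch on direct targets, among them the Id genes, whose products bind basic helix-loop-helix factors and keep them off DNA. In mouse lung, Bmp4 is made at the tips of the growing epithelial buds, Id2 marks distal tip progenitors, and in humans loss of BMPR2 function causes heritable pulmonary arterial hypertension.

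Lungs came from BALB/c fetuses at gestational day (GD) 17 or 18. The groups were flutamide-treated males (18 flut and 17 flut), males (18 m and 17 m) and females (18 f and 17 f), with 3 arrays per group and 18 in all. Flutamide is an antiandrogen that blocks the androgen receptor. Exposure was through the dam, by daily injection under the skin from GD10 to the day before lungs were taken. Each injection held either 1 mg flutamide (flut) or vehicle alone (m and f), so all groups share the injections. By design, each array carried lung RNA pooled from 3 fetuses of 1 sex, each from a separate litter. The replicates of a group held different individuals, and a p value therefore measures the spread between pools, not between single fetuses. All values below are log2 of the RMA intensity unless a fold is named, errors of differences are model SE, and called means an adjusted p under 0.05 in limma over all 45037 probe sets.

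Several pools stood apart from the rest. Pool 18 m 3 had a 5′ minus 3′ log2 signal of -0.80 for the beta-actin control probe sets, against -0.49 to -0.34 in the other 17 pools, and of -0.39 for Gapdh, against 0.14 to 0.27. The mean of the liver gene list (8 of 9 genes measured) was 12.9 in 18 m 3, 11.6 in 18 flut 2 and 11.2 to 11.3 in 17 m 3, 17 f 2 and 17 f 3, against 7.09 to 9.87 in the other 13 pools. The heart muscle list (6 of 6) averaged 12.01 in 18 flut 3 and 12.3 in 18 m 3, against at most 11.5 elsewhere, and the squamous epithelium list (6 of 6) averaged 9.22 and 9.24 in 17 f 2 and 17 f 3, against at most 7.88 elsewhere. Pool 18 m 3 was the lowest of all pools in 9 of the 21 member probe sets, while 12.6% of all probe sets were lowest there. Pool 17 m 2 was the highest in 9 of the 21. The share of all probe sets highest in 17 m 2 was not counted, so nothing particular to the members is read from that. The exocrine pancreas list (8 of 10 genes measured) averaged 9.73 to 10.3 in 17 m 3, 17 f 2 and 17 f 3, against 5.62 to 6.12 in the other 15 pools. The thymocyte list (4 of 5 genes measured) averaged 8.26 in 18 m 1, against 5.85 to 7.35 in the other 17 pools. Pool 18 flut 3 had a Xist signal of 11.9 and an Eif2s3y signal of 7.21, against 7.81 to 8.69 and 7.91 to 8.84 in the other 11 male pools and 11.3 to 12.5 and 3.09 to 3.64 in the 6 female pools. Its Xist signal thus lay within the female range, and whether 18 flut 3 held only male fetuses was not tested. Sftpc, the surfactant protein C gene of alveolar type II cells, was high in every pool (13.9 to 14.7). Where a call was lost without 18 m 3, without 18 flut 3 or without the 3 pools high in pancreas genes, the adjusted p without them is given.

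Treatment and sex moved few of these genes, and the step of 1 day moved more. Between 17 flut and 17 m, 2 of the 21 probe sets were called, 1 higher (a dim Id2 probe set, while the bright one was not called) and 1 lower (Gdf10), where 3.55% of all probe sets were called. Between 18 flut and 18 m, 1 was called, Bmpr2, lower, against 3.95% of all. Between 17 m and 17 f, 1 was called, again Bmpr2, higher in males, against 4.1% of all. Between 18 m and 18 f, 0 were called by limma, where 1.85% of all were, although 1 had an unadjusted p under 0.05 and 3 were called with array weights. The weights also raised the calls over all 45037 probe sets in that comparison, from 834 to 4794. The pools did not overlap in 6 of the 21 between 17 flut and 17 m (28.5% of all probe sets), in 2 between 18 flut and 18 m (19.4%), in 5 between 17 m and 17 f (22.7%) and in 1 between 18 m and 18 f (16.5%). The change of the flutamide difference between the days gave 0 calls in limma (0.364% of all probe sets were called, and 2 of the 21 had an unadjusted p under 0.05), and that of the sex difference gave 1, an Id2 probe set, against 6.54% of all. The shares of the list are those of a short list, and nothing particular to it is read from them.

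Between the days, 4 of the 21 probe sets were called in flutamide-treated males (2 higher, 2 lower, against 20.3% of all probe sets, 9.61% higher and 10.7% lower), 5 in males (1 higher, 4 lower, against 25% of all, 12.4% higher and 12.6% lower) and 8 in females (4 higher, 4 lower, against 33.6% of all, 16.5% higher and 17.1% lower). The pools of the days did not overlap in 8, 7 and 15 of the 21 in flutamide-treated males, males and females, against 39.4%, 33.2% and 48.4% of all probe sets. By gene, Bmp2 was higher and Id2 lower at GD18 in all 3 groups, Gdf10 was higher in 18 flut and 18 f, Bmpr2 was higher in 18 f, Bmp4 was lower in 18 flut and Bmpr1a was lower in 18 m. The median difference of the 10 genes was -0.06 in flutamide-treated males, -0.18 in males and -0.05 in females, against -0.01, 0.03 and -0.01 over all genes. Without 18 m 3 the male differences were 0.26 (Bmp2), -0.05 (Bmp4), -0.08 (Bmp5), -0.02 (Gdf10) and -0.23 (Bmpr1a). For the other genes they were 0.11 (Bmpr2), -0.14 (Smad6), 0.12 (Id1), -0.30 (Id2) and 0.002 (Id3). Their median was not computed, and no shift of the list in males is read from the -0.18. In bulk RNA, fewer cells of a type and less RNA per cell cannot be told apart. Levels of marker gene lists differed between the same days. The list of dividing-cell genes (7 of 8 measured) averaged 9.34 to 10.04 in the GD18 pools, against 10.4 to 10.6 in the GD17 pools. The lung epithelium list (6 of 6) averaged 11.0 to 11.3 at GD18, against 9.66 to 10.4 at GD17. The endothelium list (9 of 9) averaged 9.49 to 9.80 at GD18, against 8.99 to 9.26 at GD17, and the immediate early list (9 of 9) 8.26 to 8.60, against 7.93 to 8.07. None of these 4 lists overlapped between the days, and their part in the results below was not tested.

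**Figure D1:**
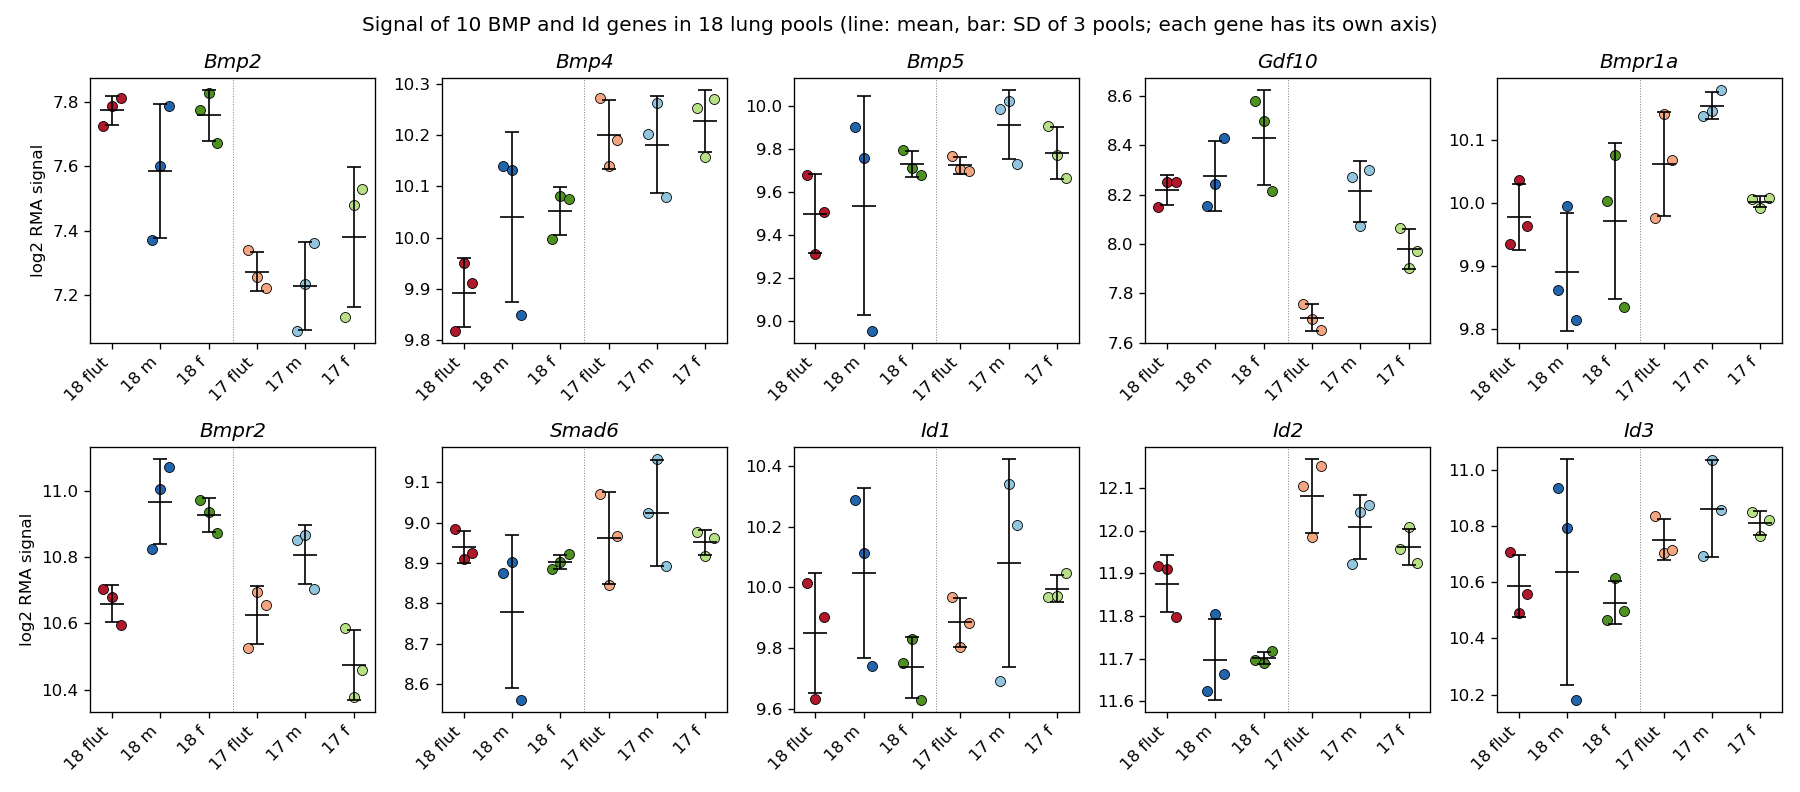
Log2 signal of the 10 genes in each of the 18 pools, by group, with the group mean as a line and the SD of 3 pools as a bar; each panel has its own vertical axis and shows the probe set of highest mean. Bmp2 is higher in every GD18 pool than in every GD17 pool of the same group, Id2 is lower, Gdf10 is lowest in the 3 pools of 17 flut, and 18 m 3 lies far below its group in Bmp5 and Id3.

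Among the 4 ligand members, Bmp2 was the gene that rose at GD18 in every group. Its signal (probe set 1423635_at) was 7.72, 7.79 and 7.81 in the 18 flut pools, against 7.34, 7.26 and 7.22 in the 17 flut pools. It was 7.37, 7.60 and 7.79 in 18 m, against 7.09, 7.24 and 7.36 in 17 m. It was 7.77, 7.83 and 7.67 in 18 f, against 7.13, 7.48 and 7.53 in 17 f. The pools of the days did not overlap in any of the 3 groups, although 18 m 1 and 17 m 3 nearly met. The rise was 0.50 ± 0.11 in flutamide-treated males (1.41-fold, adjusted p = 0.00341), 0.36 ± 0.11 in males (1.28-fold, adjusted p = 0.0247) and 0.38 ± 0.11 in females (1.30-fold, adjusted p = 0.0133). Neither treatment nor sex separated Bmp2: the flut minus m difference was 0.19 at GD18 (95% interval -0.05 to 0.42) and 0.04 at GD17 (-0.19 to 0.28). The day difference held in flutamide-treated males whichever pool was left out. In males it was not called without 18 m 2, 18 m 3, 17 m 1 or 17 m 2 (adjusted p = 0.0566, 0.116, 0.112 and 0.0553), and in females not without 18 f 2 or 17 f 1 (0.0507 and 0.0812). The male difference was also not called when 18 m and 17 m were fitted alone (adjusted p = 0.128).

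Bmp4, the ligand of the distal epithelial buds, went the other way in flutamide-treated males. It read 9.82, 9.95 and 9.91 in 18 flut, against 10.27, 10.14 and 10.19 in 17 flut. Every 18 flut pool was below every 17 flut pool, and the fall was 0.31 ± 0.08 (log2 difference -0.31, 1.24-fold, adjusted p = 0.0106). In males the values were 10.14, 10.13 and 9.85 at GD18, against 10.20, 10.26 and 10.08 at GD17, and the difference of -0.14 was not called (adjusted p = 0.23). In females they were 9.997, 10.08 and 10.08, against 10.25, 10.16 and 10.27. The female pools did not overlap, yet the difference of -0.18 was not called (adjusted p = 0.107). Whether the day difference depended on flutamide was tested directly, and the interaction of -0.17 ± 0.11 did not pass (adjusted p = 0.592). Without 18 flut 1 or 17 flut 1 the fall in flutamide-treated males was -0.27 each time and was not called (adjusted p = 0.0536 and 0.0523). Without 18 m 3 the female difference was called (adjusted p = 0.0386). With array weights Bmp4 was also called lower in 18 flut than in 18 m (-0.23, adjusted p = 0.0241, against -0.15 and 0.362 without them).

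Bmp5, another ligand of the family, gave 0 calls by limma in its 3 probe sets (2 of 27 differences had an unadjusted p under 0.05). The probe set of highest mean, 1421283_at, read 9.68, 9.31 and 9.51 in 18 flut, 9.90, 9.76 and 8.95 in 18 m, and 9.73 ± 0.06 (SD, n = 3) in 18 f. At GD17 it averaged 9.73 ± 0.04 in 17 flut, 9.92 ± 0.16 in 17 m and 9.78 ± 0.12 in 17 f. The low value was that of 18 m 3, and the probe set 1421282_at was low there too (7.14, against 8.81 and 8.50 in the other 18 m pools). Without 18 m 3 the 18 m minus 17 m difference of 1421283_at was -0.08, against -0.38 with it (adjusted p = 0.656 and 0.134), while without 18 m 1 it was called (-0.56, adjusted p = 0.0239). At GD17 1421282_at read 8.38, 8.46 and 8.35 in 17 flut, against 8.87, 9.02 and 8.68 in 17 m. In 17 f it read 8.64, 8.54 and 8.49. Its 17 m pools thus lay above all others of that day, without a call. The third probe set, 1455851_at, averaged 9.63 in 17 flut, 9.55 in 17 m and 9.49 in 17 f.

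Gdf10 showed the one difference between treated and untreated males that was called in all 30 alternative settings. Gdf10 encodes BMP3B, a close relative of BMP3. Its signal (1424007_at) was 7.76, 7.70 and 7.65 in 17 flut, against 8.27, 8.07 and 8.30 in 17 m. All 3 treated pools lay below all untreated ones, and they were the lowest of the 18 pools. Gdf10 was lower by 1.43-fold in 17 flut (-0.51 ± 0.10, adjusted p = 0.01). In 17 f the pools read 8.06, 7.90 and 7.97, below each of the 17 m pools without passing the test (17 m minus 17 f 0.23 ± 0.10, adjusted p = 0.218).

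At GD18 that gap was not seen. Gdf10 was at 8.15, 8.25 and 8.25 in 18 flut, 8.15, 8.24 and 8.43 in 18 m, and 8.58, 8.50 and 8.22 in 18 f, and all 3 groups overlapped. The 18 flut minus 18 m difference was -0.06 (95% interval -0.26 to 0.14). The change of the flutamide difference between the days was 0.45 ± 0.14, which did not pass over all probe sets (adjusted p = 0.185), so the days are not shown to differ. From day to day Gdf10 rose by 0.52 ± 0.10 in 18 flut relative to 17 flut (adjusted p = 0.00093) and by 0.45 ± 0.10 in 18 f relative to 17 f (adjusted p = 0.00137). In males the difference was 0.06 ± 0.10 (adjusted p = 0.712). Its dependence on sex, -0.39 ± 0.14, was not called (adjusted p = 0.104), but was called with array weights, without 18 m 3 and without 18 f 3 (adjusted p = 0.0333, 0.0343 and 0.0307).

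Pools high in pancreas genes bear on the GD17 values. Without 17 m 3, 17 f 2 and 17 f 3 the 17 flut minus 17 m difference of Gdf10 was -0.47 (adjusted p = 0.0414), and the female day difference was 0.37 and no longer called (adjusted p = 0.0898). The lung epithelium list averaged 10.2 to 10.4 in 17 flut, against 9.66 to 10.2 in 17 m. The smooth muscle list (5 of 5) averaged 10.12 to 10.26 in 17 flut, against 10.44 to 10.75 in 17 m, and the dividing-cell list 10.37 to 10.44, against 10.52 to 10.61. All 3 lists separated these groups without overlap, and their part in the Gdf10 difference was not tested.

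The genes with a probe set called between treated and untreated males were Gdf10, Bmpr2 and Id2, and their promoters are shown for that reason. Each is the 250 bases before the transcription start in RefSeq (GRCm38.p6). Windows were at hand for 8 of the 10 members (not Bmp2 and Id1). Capitals mark GGCGCC, a GC-rich element known for binding SMAD1 and SMAD5, and AGAACA or TGTTCT, the half-site of the androgen response element. Gdf10 lies on the plus strand at chr14:33923337-33923586, Bmpr2 on the plus strand at chr1:59764029-59764278, and Id2 on the minus strand at chr12:25096093-25096342.
Gdf10: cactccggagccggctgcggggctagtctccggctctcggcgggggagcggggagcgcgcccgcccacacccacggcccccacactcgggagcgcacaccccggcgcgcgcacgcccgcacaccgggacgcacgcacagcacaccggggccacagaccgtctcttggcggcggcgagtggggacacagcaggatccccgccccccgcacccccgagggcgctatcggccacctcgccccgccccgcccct
Bmpr2: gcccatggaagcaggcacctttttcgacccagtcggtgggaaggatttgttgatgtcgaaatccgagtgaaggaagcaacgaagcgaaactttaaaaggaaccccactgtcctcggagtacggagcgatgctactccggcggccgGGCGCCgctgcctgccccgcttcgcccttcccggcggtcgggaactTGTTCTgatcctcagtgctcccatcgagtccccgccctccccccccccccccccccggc
Id2: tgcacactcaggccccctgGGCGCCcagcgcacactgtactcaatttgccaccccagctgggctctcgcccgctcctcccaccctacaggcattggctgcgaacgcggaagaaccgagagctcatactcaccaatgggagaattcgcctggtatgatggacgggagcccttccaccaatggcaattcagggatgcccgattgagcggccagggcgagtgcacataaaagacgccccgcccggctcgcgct
The Gdf10 window held neither run of letters. In Bmpr2 GGCGCC began at position -105 and TGTTCT at -59, and in Id2 GGCGCC began at -231, counted back from the start. Both strands were searched and the runs do not overlap. GGCGCC is present in 9.59% and the half-site in 16.1% of 32851 windows of the same length. Of the other members with a window, Bmpr1a held GGCGCC (-198), Smad6 held the half-site (-76), and Bmp4, Bmp5 and Id3 held neither. A match of letters is a description of these windows and says nothing of binding.

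**Figure D2:**
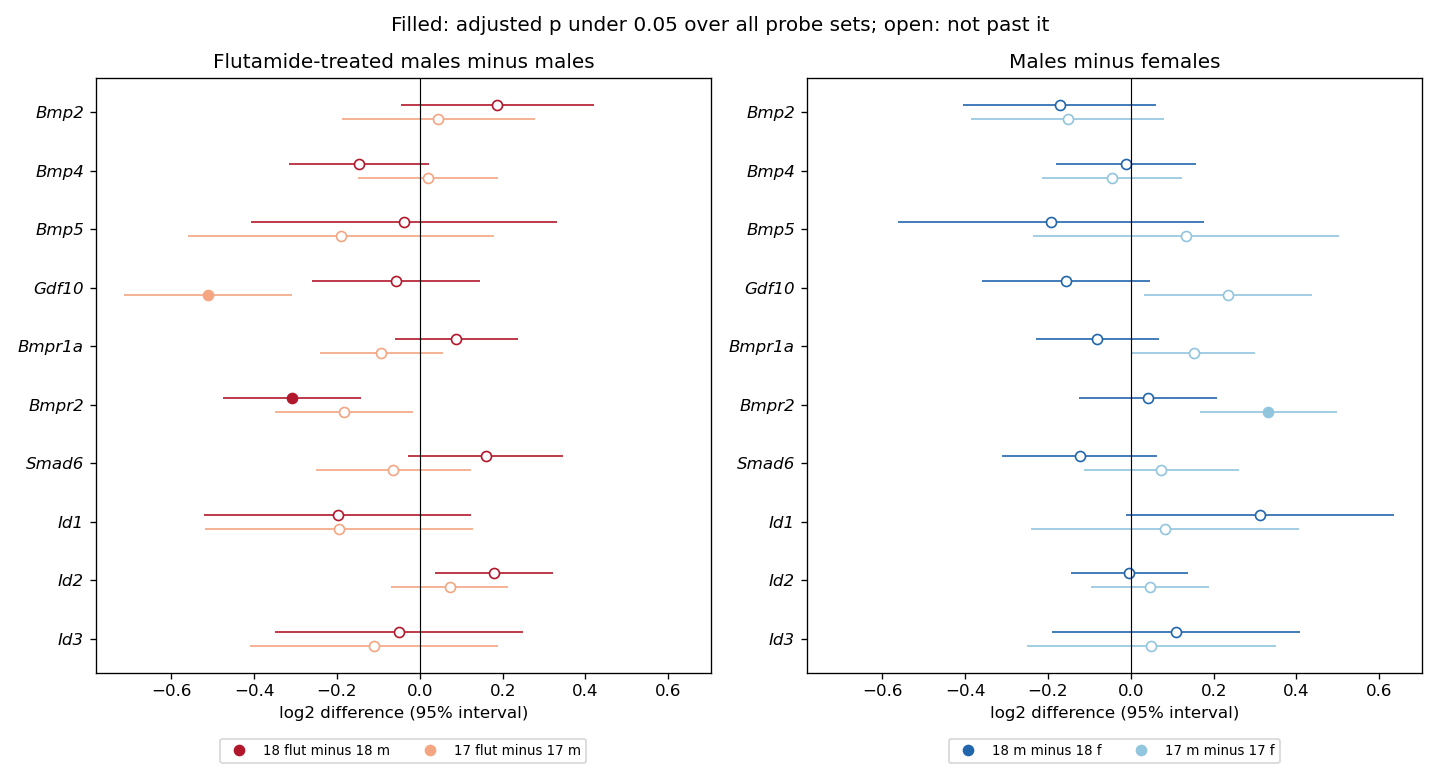
Log2 differences of the 10 genes between flutamide-treated males and males (left) and between males and females (right) at GD18 and GD17, with 95% intervals; filled points passed an adjusted p under 0.05 and open points did not. Gdf10 at GD17 (-0.51) and Bmpr2 at GD18 (-0.31) are the filled points on the left, and Bmpr2 at GD17 (0.33) is the filled point on the right.

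Bmpr2, the type II receptor, was the member called both by treatment, at GD18, and by sex, at GD17, each time in its main probe set only. Its main probe set, 1434310_at, read 10.70, 10.68 and 10.60 in 18 flut, against 10.83, 11.00 and 11.07 in 18 m. It read 10.97, 10.94 and 10.87 in 18 f, within the range of the males of that day. The treated pools were the lowest at GD18 and did not overlap the others, and Bmpr2 was lower in 18 flut than in 18 m by 1.24-fold (-0.31 ± 0.08, adjusted p = 0.0371). This call was lost without 18 flut 1, 18 flut 2, 18 flut 3, 18 m 2, 18 m 3, 17 flut 3 or 17 f 3 (adjusted p = 0.0753, 0.0791, 0.139, 0.107, 0.076, 0.0508 and 0.0505), with differences between -0.33 and -0.26. Left without both 18 m 3 and 18 flut 3, it was -0.22 (adjusted p = 0.182), and with the replicate number as a block it was not called (adjusted p = 0.0615). Nor was it called when 18 flut and 18 m were fitted alone (adjusted p = 0.26). The dividing-cell list averaged 9.37 to 9.59 in 18 flut, against 9.64 to 10.04 in 18 m, and the lung epithelium list 11.10 to 11.33, against 11.00 to 11.07. Neither list overlapped between these groups, and their part in the Bmpr2 difference was not tested.

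At GD17 Bmpr2 was highest in the male pools. It read 10.53, 10.69 and 10.65 in 17 flut, 10.85, 10.87 and 10.70 in 17 m, and 10.59, 10.38 and 10.46 in 17 f. The male pools lay above all treated and all female ones. Against treated males the difference did not pass (17 flut minus 17 m -0.18 ± 0.08, adjusted p = 0.207), and against females Bmpr2 was 1.26-fold higher in 17 m (0.33 ± 0.08, adjusted p = 0.0221). The sex difference was not called without 17 m 1, 17 m 2, 17 f 2 or 17 f 3 (adjusted p = 0.0913, 0.0993, 0.122 and 0.084), nor without the 3 pools high in pancreas genes (0.27, adjusted p = 0.407). Nor was it called when 17 m and 17 f were fitted alone (adjusted p = 0.0864). The heart muscle list averaged 10.7 to 10.9 in 17 m, against 10.5 to 10.6 in 17 f, and the erythroid list (5 of 7 genes measured) 9.04 to 9.76, against 10.06 to 10.08. Their part in the sex difference was not tested. At GD18 the 18 m minus 18 f difference was 0.04 (95% interval -0.13 to 0.21), and the change of the sex difference between days, -0.29 ± 0.11, did not pass (adjusted p = 0.141).

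From day to day Bmpr2 rose in females, by 0.45 ± 0.08 or 1.37-fold (18 f minus 17 f, adjusted p = 0.000241), and this held in all 30 alternative settings. The dim probe set 1441652_at (mean 5.72) rose with it (0.37 ± 0.08, adjusted p = 0.00239). By treatment 1441652_at did not go with the main probe set. It averaged 5.78 in 18 flut, against 5.75 in 18 m, and 5.80 in 17 flut, against 5.67 in 17 m. The day difference of the main probe set was 0.16 ± 0.08 in males (adjusted p = 0.158) and 0.03 ± 0.08 in flutamide-treated males (adjusted p = 0.84). The third probe set, 1419616_at, gave 0 calls by limma (2 of 9 differences had an unadjusted p under 0.05). Its flut minus m differences were -0.29 at GD18 and -0.32 at GD17 (adjusted p = 0.206 and 0.142), and its 17 m minus 17 f difference was 0.02. In females 1419616_at went the other way from the main probe set. It read 7.79, 7.74 and 7.62 in 18 f, against 7.84, 7.92 and 7.81 in 17 f, without overlap. In the main probe set the day difference of males was called without 18 m 1 (0.23, adjusted p = 0.0453).

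Bmpr1a, a type I receptor, was called lower at GD18 in males by its main probe set. 1425492_at read 9.86, 9.99 and 9.81 in 18 m, against 10.14, 10.15 and 10.18 in 17 m, with no overlap, and was lower in 18 m by 1.20-fold (-0.26 ± 0.07, adjusted p = 0.0109). The values were 9.93, 10.04 and 9.96 in 18 flut, against 9.98, 10.14 and 10.07 in 17 flut, and 10.003, 10.08 and 9.83 in 18 f, against 10.01, 9.99 and 10.01 in 17 f. Both of these pairs overlapped, with differences of -0.08 and -0.03 that were not called (adjusted p = 0.495 and 0.789). The dependence on sex was -0.23 ± 0.10 and was not called (adjusted p = 0.194).

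The other Bmpr1a probe sets differed in how they read pool 18 m 3. In 1425491_at every GD18 pool was below every GD17 pool of its group, although 0 of the day differences were called by limma (1 had an unadjusted p under 0.05). It read 8.55, 8.57 and 8.56 in 18 flut, against 8.68, 8.67 and 8.68 in 17 flut, and 8.47, 8.58 and 8.45 in 18 f, against 8.82, 8.85 and 8.79 in 17 f. The adjusted p was 0.765 in flutamide-treated males, 0.0564 in males and 0.209 in females. The days also did not overlap in males and in females in 1425493_at. Pool 18 m 3 was at 7.66 in 1425491_at, against 8.64 and 8.76 in 18 m 1 and 18 m 2, and at 7.86 in 1425494_s_at, against 8.52 and 8.59. 1425493_at was called lower in 18 m than in 17 m (-0.31 ± 0.11, adjusted p = 0.0467), but without 18 m 3 the difference was -0.13 (adjusted p = 0.202). Leaving out any other pool except 18 m 1 or 18 m 2 also ended the call (adjusted p between 0.0515 and 0.118), as did leaving out the 3 pools high in pancreas genes together (-0.31, adjusted p = 0.118). The dim probe set 1445413_at was lower in 18 f than in 17 f (-0.36 ± 0.09, adjusted p = 0.00413) in all the alternatives that kept it. Without 18 m 3 the main probe set was still called lower in 18 m (-0.23, adjusted p = 0.0429). It was not called with array weights (-0.19, adjusted p = 0.0595), without both 18 m 3 and 18 flut 3 (-0.23, 0.0537), without the 3 pools high in pancreas genes (-0.25, 0.057), or when 18 m and 17 m were fitted alone (-0.26, 0.0886).

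**Figure D3:**
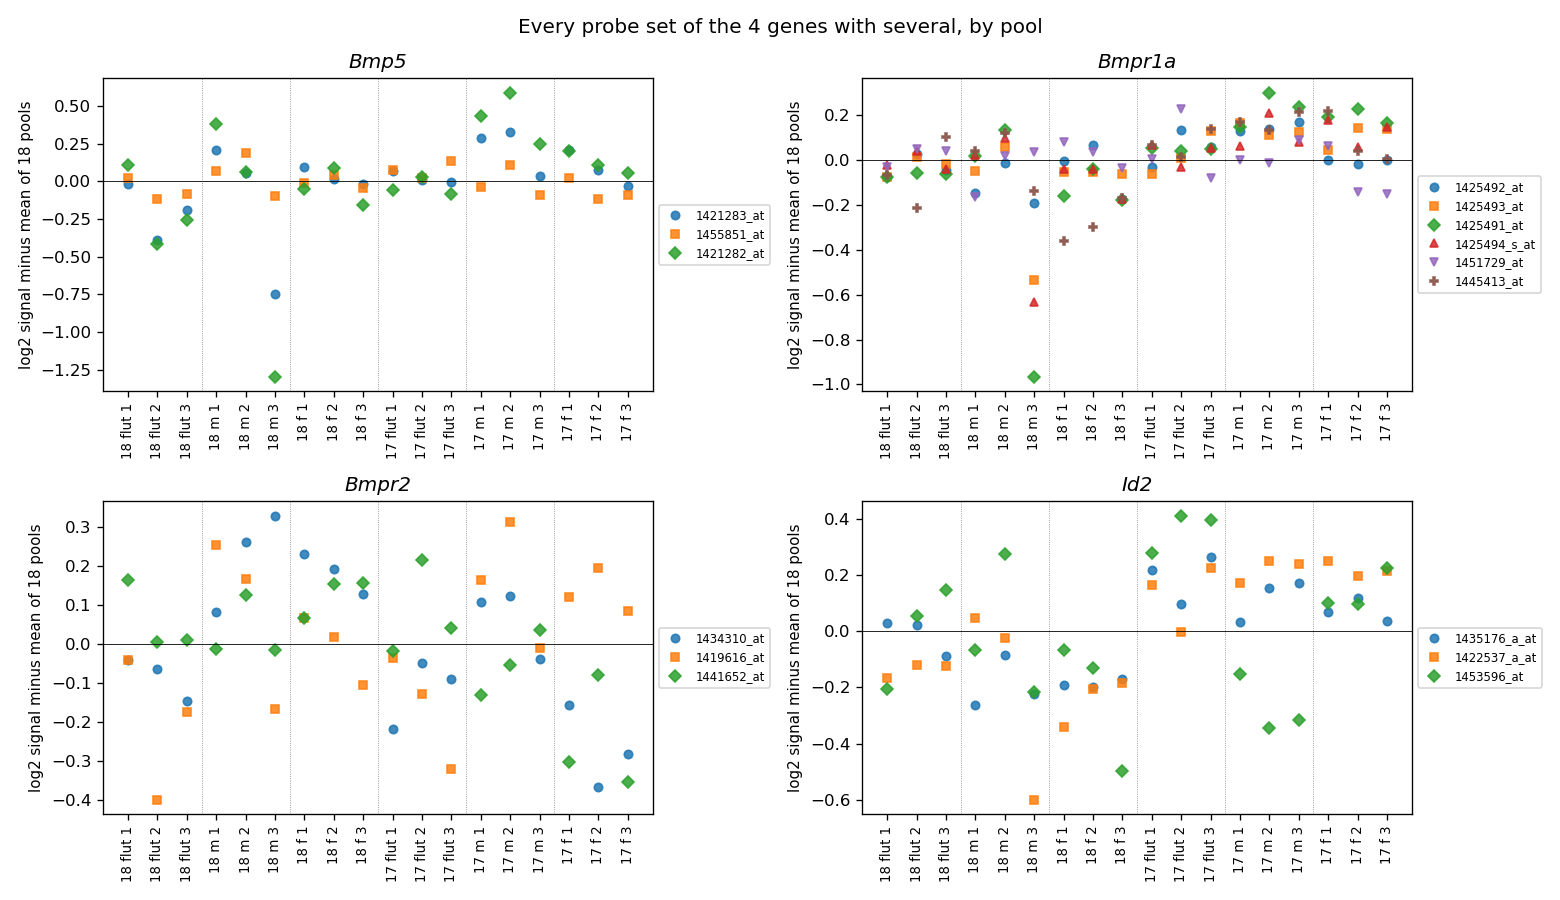
Log2 signal of each probe set of Bmp5, Bmpr1a, Bmpr2 and Id2 in each pool, minus that probe set's mean over the 18 pools. Pool 18 m 3 is far below 0 in 2 probe sets of Bmp5, 3 of Bmpr1a and 1 of Id2, while the main probe set of Bmpr2 is at its highest there.

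Smad6, whose product holds back BMP signals inside the cell and is itself a BMP target, gave 0 calls in limma (1 of 9 differences had an unadjusted p under 0.05). It averaged 8.94 ± 0.04 in 18 flut, 8.78 ± 0.19 in 18 m, 8.90 ± 0.02 in 18 f, 8.96 ± 0.11 in 17 flut, 9.02 ± 0.13 in 17 m and 8.95 ± 0.03 in 17 f (SD, n = 3 each). The lowest pool was 18 m 3 (8.56) and the highest 17 m 2 (9.16). The 18 m minus 17 m difference of -0.24 was close to the threshold (adjusted p = 0.0535), was called in 9 of 30 alternatives, and was -0.14 without 18 m 3 (adjusted p = 0.255). Without 18 m 1, 18 m 2 or 17 m 3 it was called (adjusted p = 0.0379, 0.0289 and 0.028).

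Id2, a direct BMP target and marker of distal tip cells in the mouse lung, fell at GD18 in all 3 groups. The main probe set, 1435176_a_at, read 11.92, 11.91 and 11.80 in 18 flut, against 12.11, 11.99 and 12.15 in 17 flut. It read 11.62, 11.80 and 11.66 in 18 m, against 11.92, 12.04 and 12.06 in 17 m. It read 11.70, 11.69 and 11.72 in 18 f, against 11.96, 12.01 and 11.92 in 17 f. No GD18 pool overlapped the GD17 pools of its group. The differences were -0.31 ± 0.07 in males (1.24-fold lower, adjusted p = 0.00253), -0.26 ± 0.07 in females (1.20-fold lower, adjusted p = 0.00559) and -0.21 ± 0.07 in flutamide-treated males (1.15-fold lower, adjusted p = 0.0387). In flutamide-treated males the call was lost without 18 flut 1, 18 flut 2, 18 flut 3, 17 flut 1 or 17 flut 3 (adjusted p = 0.0577, 0.0562, 0.164, 0.111 and 0.153). When only the groups compared were fitted, the differences in males and in flutamide-treated males were not called (adjusted p = 0.067 and 0.0692). Without the 3 pools high in pancreas genes the female difference stayed at -0.26 but was not called (adjusted p = 0.0965), and that of flutamide-treated males was not called either (-0.21, adjusted p = 0.0611).

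A second Id2 probe set, 1422537_a_at, also fell in males (-0.41 ± 0.12, adjusted p = 0.019) and in females (-0.46 ± 0.12, adjusted p = 0.0064). In males it was lowest in 18 m 3 (9.55, against 10.19 and 10.12 in 18 m 1 and 18 m 2), and without that pool the difference was -0.21 (adjusted p = 0.051). It was also lost without 17 m 2 or 17 m 3 (adjusted p = 0.0547 and 0.0512), and without the 3 pools high in pancreas genes in males and in females (adjusted p = 0.0769 and 0.0881). When 18 m and 17 m were fitted alone the male call was lost too (adjusted p = 0.175).

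The third Id2 probe set, 1453596_at, behaved differently by treatment and sat near the floor of the array, with a mean of 6.13 where the median of all probe sets was 6.38. It read 6.42, 6.55 and 6.53 in 17 flut, against 5.98, 5.79 and 5.82 in 17 m, and 6.23, 6.23 and 6.36 in 17 f. The 3 groups did not overlap, and its log2 signal was higher in 17 flut than in 17 m (0.63 ± 0.13, adjusted p = 0.0148), a difference given without a fold because the signal is so low. The brighter 1435176_a_at showed no such step (0.07, 95% interval -0.07 to 0.21). The call was lost without 17 flut 2 or 17 flut 3 (adjusted p = 0.063 and 0.0521) and without the 3 pools high in pancreas genes (adjusted p = 0.0527). At GD18 the same probe set read 5.93, 6.19 and 6.28 in 18 flut, 6.07, 6.41 and 5.92 in 18 m, and 6.07, 6.01 and 5.64 in 18 f, with overlap throughout. From day to day it was lower in 18 f than in 17 f (-0.37 ± 0.13, adjusted p = 0.0336), a call lost without 18 f 3, 17 f 1, 17 f 2 or 17 f 3 (adjusted p = 0.189, 0.0547, 0.0584 and 0.114) or without the 3 pools high in pancreas genes (0.298). In males the difference was 0.27 (adjusted p = 0.147), and the sex difference changed between the days by 0.64 ± 0.18 (adjusted p = 0.0448, and 0.328 without those 3 pools).

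Id1 and Id3, the remaining targets, gave 0 calls in limma in any comparison, and 0 of their differences had an unadjusted p under 0.05. Among the alternatives, Id1 was called higher in 18 m than in 18 f with array weights (0.39, adjusted p = 0.0459) and lower in 18 f than in 17 f when those groups were fitted alone (-0.26, adjusted p = 0.0218). Id1 (1425895_a_at) averaged 9.85 ± 0.20 in 18 flut, 10.05 ± 0.28 in 18 m and 9.74 ± 0.10 in 18 f, and 9.88 ± 0.08 in 17 flut, 10.08 ± 0.34 in 17 m and 9.996 ± 0.05 in 17 f. Its spread between male pools was wide: 17 m 1 was at 9.69 and 17 m 2 at 10.34. The flut minus m difference of Id1 was -0.20 at GD18 (95% interval -0.52 to 0.12) and -0.19 at GD17 (-0.52 to 0.13). Id3 (1416630_at) read 10.71, 10.49 and 10.56 in 18 flut, 10.93, 10.79 and 10.18 in 18 m, and 10.47, 10.61 and 10.50 in 18 f. The low 18 m value was again 18 m 3, and without it Id3 was called higher in 18 m than in 18 f (0.34, adjusted p = 0.0455, against 0.11 and 0.808 with it) and lower in 18 f than in 17 f (-0.28, adjusted p = 0.0136, against 0.143 with it). The female day difference was also called with array weights and when those groups were fitted alone (adjusted p = 0.0223 and 0.0103). At GD17 Id3 averaged 10.75 ± 0.07 in 17 flut, 10.86 ± 0.17 in 17 m and 10.81 ± 0.04 in 17 f, and all 3 groups overlapped.

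**Figure D4:**
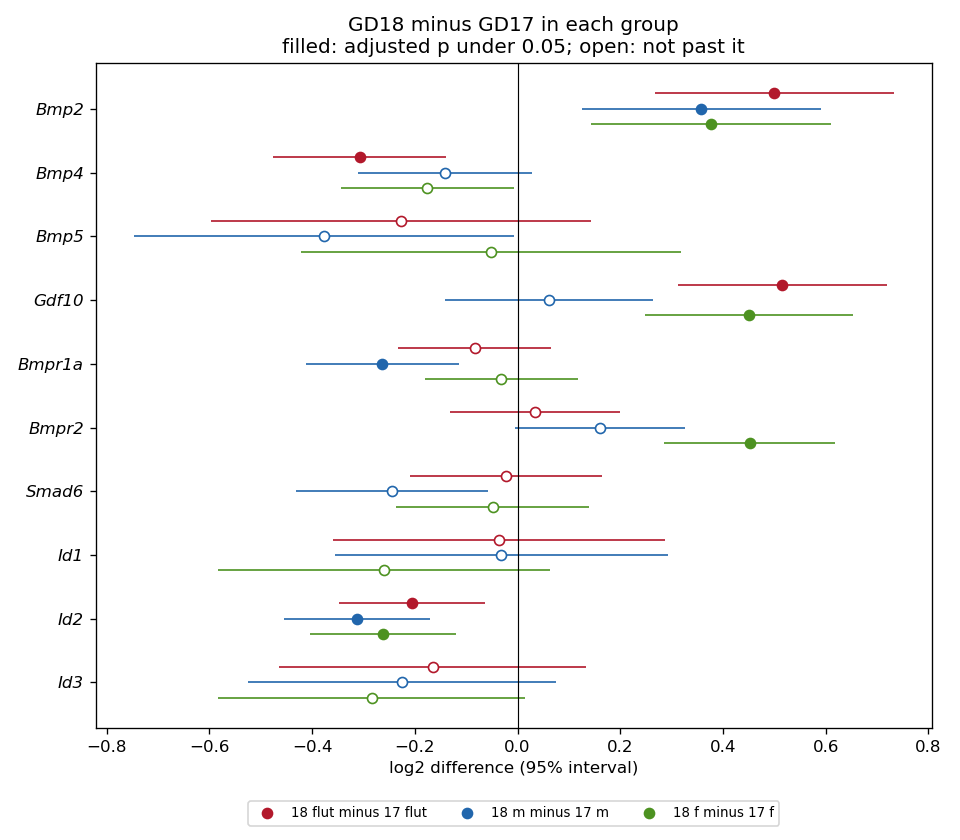
Log2 differences GD18 minus GD17 of the 10 genes in flutamide-treated males, males and females, with 95% intervals; filled points passed an adjusted p under 0.05. Bmp2 lies right of 0 and Id2 left of 0 with filled points in all 3 groups, and Gdf10 is filled in flutamide-treated males (0.52) and females (0.45).

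Over the 18 pools, which share group means, array processing and the pools named above, Pearson's r of Id1 with Id3 was 0.80, and 0.84 once group means were removed. Bmp5 and Id3 had r = 0.80, and Bmp2 and Bmp4 had r = -0.77 (-0.45 within groups). Id2 with Id1 had r = 0.23. Among 11373 other genes, those most like each member over the same pools were Cpeb2 (0.96) and Gjb6 (0.95) for Bmp2, Ap3s1 (0.92) and Stau2 (0.91) for Bmp4, and Cnot2 (0.92) and Ccni (0.91) for Bmp5. For Gdf10 they were Plod1 (0.88) and Col1a2 (0.88), which were 0.55 and 0.21 within groups, and for Smad6 they were Lca5 (0.91) and Tgif1 (0.88). The receptors were nearest to Thbs2 (0.83) and Zfpm2 (0.83) for Bmpr1a, and to Ptpn4 (0.95) and Myo9a (0.95) for Bmpr2. The Id genes were nearest to Taf7 (0.84) and Ing3 (0.84) for Id1, Dhx9 (0.91) and Orc1 (0.91) for Id2, which were 0.64 and 0.49 within groups, and Dctn5 (0.93) and Btf3 (0.93) for Id3.

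The rest of the pathway was read from a list of 49 genes, of which 44 were measured: 7 ligands, 8 receptors, 13 extracellular antagonists or modulators, 10 transducers or inhibitors inside the cell and 6 targets. The rest were not analysed here. In limma, 0 of the 44 were called between 18 flut and 18 m or between males and females on either day (9 had an unadjusted p under 0.05 between 18 flut and 18 m, 7 between 18 m and 18 f and 0 between 17 m and 17 f). Of all probe sets, 3.95% were called between 18 flut and 18 m, 1.85% between 18 m and 18 f and 4.1% between 17 m and 17 f. Between 17 flut and 17 m 1 of the 44 was called, against 3.55% of all. That gene was Id4, the fourth Id family member. It read 8.70, 8.62 and 8.60 in 17 flut, against 9.13, 9.28 and 9.36 in 17 m, and 9.01, 9.33 and 9.30 in 17 f. The treated pools were below every untreated pool of that day, and Id4 was lower in 17 flut than in 17 m (-0.62 ± 0.15, adjusted p = 0.0368). Leaving out any of the 6 pools of that comparison in turn kept the difference between -0.68 and -0.56 but ended the call (adjusted p between 0.0689 and 0.111), as did leaving out the 3 pools high in pancreas genes (0.0936). Id4 fell by 0.82 in 18 m relative to 17 m (adjusted p = 0.000826; -0.56 without 18 m 3, adjusted p = 0.000463) and by 0.67 in 18 f relative to 17 f (adjusted p = 0.00233), although the female call was lost without the 3 pools high in pancreas genes (adjusted p = 0.178). In flutamide-treated males the day difference was -0.10 (adjusted p = 0.736), and the change of the flutamide difference between days, 0.72 ± 0.21, did not pass (adjusted p = 0.186).

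Between the days, 7 of the 44 were called higher and 2 lower in flutamide-treated males, 6 higher and 3 lower in males, and 12 higher and 3 lower in females, where 20.3% of all probe sets were called in flutamide-treated males, 25% in males and 33.6% in females. Bmp6, a ligand, rose in all 3 groups, by 0.75 ± 0.10 in flutamide-treated males, 0.80 ± 0.10 in males and 1.05 ± 0.10 in females (adjusted p = 3.83e-05, 2.38e-05 and 5.61e-07). It read 6.96, 6.93 and 7.26 in 18 flut, against 6.39, 6.21 and 6.28 in 17 flut. Its dependence on sex, -0.25 ± 0.14, was not called (adjusted p = 0.328). In the GD17 pools Bmp6 was dim, at 5.92 to 6.39, where the median of all probe sets was 6.38. Hey1, a Notch and BMP target, rose by 0.49, 0.59 and 0.70 in the same 3 groups (adjusted p = 0.000381, 7.7e-05 and 5.67e-06), and Smurf2, a ubiquitin ligase that acts on SMADs and receptors, by 0.35, 0.31 and 0.45 (adjusted p = 0.00453, 0.00796 and 0.00027). The type I receptor gene Bmpr1b fell by 0.51, 0.65 and 0.68 (adjusted p = 0.00135, 0.000177 and 4.22e-05), and was dim in the GD18 pools (6.04 to 6.39). Nog, which encodes the BMP antagonist noggin and is dim on this array, fell by 0.52, 0.40 and 0.57 (adjusted p = 0.00412, 0.0185 and 0.00112). In males the Nog call was lost without 18 m 2 or 17 m 1 (adjusted p = 0.0885 and 0.103) and when 18 m and 17 m were fitted alone (adjusted p = 0.161). The Smurf2 call in males was lost without the 3 pools high in pancreas genes (0.23, adjusted p = 0.0695) and when 18 m and 17 m were fitted alone (adjusted p = 0.139). These were the 5 genes called in all 3 groups, and Acvr1, Acvr2a, Acvrl1, Fstl1, Gdf5, Nbl1, Smad1, Smad4, Sost and Tbx3 were called higher in 1 or 2 of them. Gdf5 and Sost were dim, with means of 4.89 and 5.55. The median difference of the 44 genes was 0.07 in flutamide-treated males, 0.01 in males and 0.04 in females.

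Several calls made in 1 or 2 groups rested on few pools. Acvr2a and Tbx3, called in females, were lost in 13 and 12 of 30 alternatives, and Sost, also called in females, in 8 of 29. In males, Fstl1 and Gdf5 were not called without 18 m 3 (0.20 and 0.26, adjusted p = 0.051 and 0.13), Fstl1 not without the 3 pools high in pancreas genes (0.25, adjusted p = 0.0671), and Gdf5 not without 17 m 1 (adjusted p = 0.133). With 18 m and 17 m fitted alone, Fstl1, Gdf5 and Nbl1 were not called (adjusted p = 0.127, 0.108 and 0.11). In flutamide-treated males, Smad4, Acvr1 and Acvrl1 were not called without 18 flut 3 (0.21, 0.25 and 0.52, adjusted p = 0.0593, 0.0645 and 0.07), Acvrl1 not without 18 flut 1 or 17 flut 3 (adjusted p = 0.073 and 0.06), and Smad1 not without 18 flut 1 or 17 flut 3 (0.0931 and 0.0879). In females, Acvr1, Acvrl1 and Nbl1 were not called without the 3 pools high in pancreas genes (0.32, 0.60 and 0.40, adjusted p = 0.0754, 0.0943 and 0.211), Acvr2a, Tbx3 and Sost not either (adjusted p = 0.487, 0.558 and 0.112), and Nbl1 not without 18 f 1, 18 f 3 or 17 f 2 (0.0692, 0.0671 and 0.0778). Leaving out single pools gave an adjusted p of 0.053 to 0.149 for the lost calls of Acvr2a, 0.0514 to 0.173 for those of Tbx3 and 0.0551 to 0.182 for those of Sost. The differences of Fstl1 and Smad4 in females were called in all 30 alternatives, and that of Gdf5 in all 29 that kept it.

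**Figure D5:**
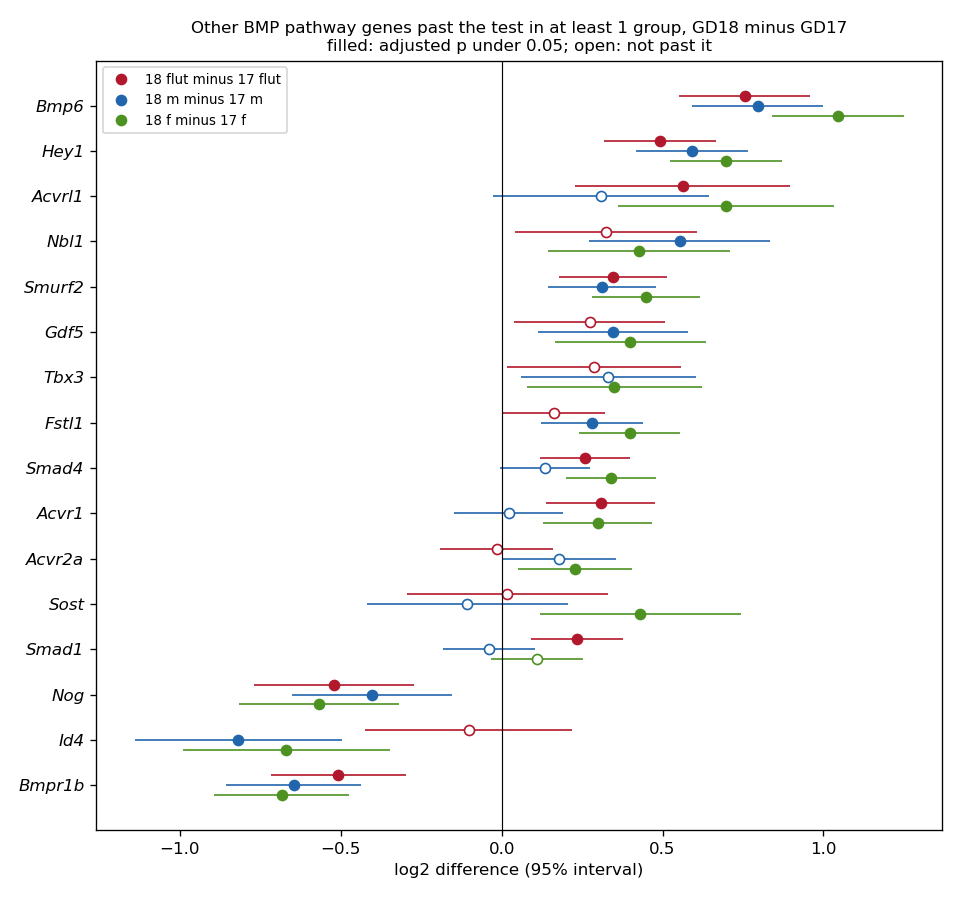
Log2 differences GD18 minus GD17, with 95% intervals, of the 16 other BMP pathway genes called in at least 1 of flutamide-treated males, males and females; filled points passed an adjusted p under 0.05. Bmp6, Hey1 and Smurf2 are filled to the right of 0 and Bmpr1b and Nog to the left of 0 in all 3 groups, and Id4 is filled on the left in males and females.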

How the data were processed

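Lung RNA from 18 pools was hybridised to Affymetrix MOE430 2.0 arrays, read with GCOS and summarised by RMA by the authors, who then used limma. The deposited values were RMA intensities on a linear scale (6.61 to 30227.8), not log2 values, and their log2 was taken here. Arrays carry no read depth. The number of arrays limits the precision, as do dim probe sets and the pools that stood apart. Of 45101 probe sets, 64 AFFX controls were left out. Gene names came from the 2016 platform annotation, in which 34945 of the tested probe sets had 1 symbol, 932 had several and 9160 had none. The groups came from the sample labels.

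A model with 6 group means over all 18 arrays (12 residual degrees of freedom) was fitted in limma 3.58.1 (R 4.3.3) with empirical Bayes moderation, and p values were adjusted by Benjamini-Hochberg over all 45037 probe sets within each comparison. The fit was tested on simulated data. Flutamide and sex differences at 1 day share the male pools. Every member was named with all its probe sets. Of the other pathway genes, those called were named, at most 4 per comparison by smallest p, with Id4 always, and likeness to a member was Pearson's r, giving the 2 genes with the highest. The 10 further pathway genes called in 1 or 2 groups were listed by name after their values were seen. The members, lists and tests were chosen with earlier results of these data known. Alternatives covered normalization, array weights, the prior, filters, the fit on the compared groups, 1 probe set per gene, the replicate number as a block and leaving out pools.

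Pools of equal replicate number showed no consistent pairing: the correlation of their deviations from group means ran from -0.32 to 0.37 (median -0.03), and 12 of 45 pairs were over 0.1. Whether groups shared litters was not tested.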

Additional observations from a re-analysis of the deposited data

Results flagged for a closer look

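The Id2 probe set 1453596_at was the one member whose sex difference changed between the days beyond the test: the 18 m minus 18 f difference was 0.23, the 17 m minus 17 f difference was -0.41, and the change between them was 0.64 ± 0.18 on the log2 scale (limma, adjusted p = 0.0448 over all probe sets). It read 6.07, 6.41 and 5.92 in 18 m and 6.07, 6.01 and 5.64 in 18 f, and 5.98, 5.79 and 5.82 in 17 m and 6.23, 6.23 and 6.36 in 17 f. The probe set was dim, and the change was not called in 15 of the 28 alternatives that kept it. Without 17 f 3, 18 f 3 or 17 m 2 the adjusted p was 0.111, 0.11 and 0.102. The brighter Id2 probe set 1435176_a_at gave -0.05 for the same change (adjusted p = 0.834).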

How the results depend on the processing

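Of 14 called differences of the main probe sets, 4 were called in every one of 30 alternatives (Bmp2 and Gdf10 between 18 flut and 17 flut, Gdf10 between 17 flut and 17 m, and Bmpr2 between 18 f and 17 f), and 0 reversed. In the other pathway genes, whose alternatives were chosen after seeing the data, 17 of 34 called differences were kept in every alternative and 0 reversed.

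The number of member probe sets called moved as follows, and the causes were not tested. Between 17 flut and 17 m it was 1, against 2, once the dimmer probe sets were left out, with 1 probe set per gene and without the 3 pools high in pancreas genes. Between 18 flut and 18 m it was 0, against 1, after a second quantile normalization, in the fit of only the groups compared and without 18 m 3 and 18 flut 3, and 4 with array weights. Between 17 m and 17 f it was 0, against 1, with 1 probe set per gene and without the pancreas-high pools, and 2 without 18 m 3 and 18 flut 3 and at an adjusted p under 0.10. Between 18 m and 18 f it was 3, against 0, with array weights and 1 without 18 m 3 and 18 flut 3. Between 18 m and 17 m it was 0, against 5, in the fit of only the groups compared, 3 without the pancreas-high pools, 1 without 18 m 3 and 18 flut 3, and 8 at an adjusted p under 0.10. Between 18 f and 17 f it was 5, against 8, without the dimmer probe sets, 4 with 1 probe set per gene and without the pancreas-high pools, and 13 without 18 m 3 and 18 flut 3. For flutamide by day it was 1, against 0, with array weights. For sex by day it was 3, against 1, with array weights, 2 without 18 m 3 and 18 flut 3, and 0 without the dimmer probe sets, in the fit of only the groups compared, with 1 probe set per gene and without the pancreas-high pools. Calls over all probe sets moved too. With array weights they were 5680 between 18 flut and 18 m (1777 as reported) and 4794 between 18 m and 18 f (834). For flutamide by day they were 685 (164), and for sex by day 5837 (2944). In the fit of only the groups compared they were 146 between 18 flut and 18 m. That fit gave 4764 between 18 m and 17 m (11266) and 1836 for sex by day. Nothing particular to the members is read from these counts.

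Leaving out 1 pool at a time gave counts of 1 to 3 (17 flut minus 17 m), 0 to 1 (18 flut minus 18 m), 0 to 2 (17 m minus 17 f), 0 to 3 (18 m minus 18 f), 2 to 6 (18 flut minus 17 flut), 2 to 10 (18 m minus 17 m), 6 to 13 (18 f minus 17 f), 0 to 0 (flutamide by day) and 0 to 2 (sex by day). Without 18 m 3 the counts were 3, 1, 2, 3, 6, 2, 13, 0 and 2 in that order. Over all probe sets the calls without 18 m 3 were 3991, 2990, 2946, 2970, 11282, 9714, 17276, 260 and 4707. With every pool they were 1600, 1777, 1845, 834, 9129, 11266, 15112, 164 and 2944.

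With the replicate number as a block the counts in that order were 2, 0, 1, 0, 3, 4, 8, 0 and 0. Over all probe sets they were 1219, 1468, 1727, 597, 8778, 10862, 14835, 85 and 2629. Of the 18 pools, 8 correlated best with their own number, and pairing by litter was not tested.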
